A study of Rattus norvegicus with 10 samples.

Results

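The baseline transcript profile of the rat jejunum was taken from the 3 arrays labelled as vehicle jejunum, out of 10 arrays in the series. Each array held RNA from 1 male Sprague Dawley rat, a common outbred laboratory strain. The 3 rats received the carrier alone by mouth for 5 days, 0.2% hydroxypropylmethylcellulose at 10 ml/kg/day, and are called rats 1, 2 and 3 by the numbers in the labels. The other 7 arrays came from rats given A-998679, a compound that acts on nicotinic acetylcholine receptors, at 30 (2 arrays), 100 (3 arrays) or 200 (2 arrays) mg/kg/day. No dose effect is described here, and the treated arrays serve to set the spread of the vehicle arrays beside that of other pairs and to count how many of the brightest genes they share. Rats weighed 176 to 200 g by the labels and were fasted overnight before the tissue was taken, so the profile is that of a fasted gut wall.

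The jejunum is the middle stretch of the small intestine, where most sugar, peptide and fat is taken up. Its absorptive cells, the enterocytes, carry a brush border of microvilli set with enzymes that cut sugars and peptides, and behind it transporters and lipid carriers that pass the products on. Goblet cells make mucus, Paneth cells at the crypt base make antimicrobial peptides, and the wall beneath holds connective tissue, immune cells, nerves and smooth muscle. Enterocytes also hold cytochrome P450 enzymes, conjugating enzymes and efflux pumps that act on drugs before they reach the blood. The piece of tissue was not separated into layers, so a higher intensity in bulk RNA can come from more cells of a type or from more RNA per cell, and these cannot be told apart.

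The vehicle arrays held 29559 probe sets with 3268 to 3307 blanks each, and their median log2 intensities lay between 5.88 and 5.89. A value was present on all 3 vehicle arrays for 24321 probe sets. Genes were ranked by the mean log2 intensity of their brightest complete probe set, which gave 12338 ranked genes with a median of 6.82. The percentile of a gene is its place in that order, where 100 is the bright end. Intensity also depends on how well a probe binds, so an order of intensity is not an order of transcript number. Among 3395 genes with at least 2 complete probe sets, the brightest and the dimmest differed by a median of 1.74 on the log2 scale, and by less than 1 in 27.6% of genes. The number of arrays limits the precision, and with 1 array per rat a difference between rats and one between arrays cannot be told apart. On these arrays rat 1 stood apart from the other two more often than any other rat, as described with the spread, so values are given per rat.

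The brightest gene was Fabp1, the liver-type fatty acid binding protein that ferries fatty acids inside enterocytes. Fabp1 had log2 intensities of 12.93, 13.04 and 12.88 in rats 1, 2 and 3 and was ranked 1 in each of them. Of the 50 brightest genes 12 encode ribosomal proteins or the elongation factor Eef1a1, and 10 encode mitochondrial proteins. Lipid and retinoid carriage gave 6 genes, mucus, defence and antigen presentation 5, epithelial adhesion and microvilli 4, actin and contraction 4, and brush border digestion 2. These roles were assigned after the values were seen.

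Lipid carriers, surface proteins and secreted defence were also part of that order, with no other tissue on these arrays to set them against. Rbp2, which binds retinol in enterocytes, had 12.42, 12.65 and 12.32, and Fabp2, the intestinal fatty acid binding protein, had 12.40, 12.55 and 12.43. The apolipoproteins of intestinal lipoproteins followed closely, with means of 12.33 ± 0.11 (SD, n = 3) for Apoa1, 12.32 ± 0.09 (SD, n = 3) for Apoa4 and 11.95 ± 0.15 (SD, n = 3) for Apob. The value of Apob rests on its brightest probe set, and the median over its probe sets was 8.56. Epcam, an adhesion protein of epithelia, averaged 12.56 ± 0.05 (SD, n = 3), and Krt8, a keratin of simple epithelia, 12.32 ± 0.11 (SD, n = 3). In 46 of 49 pairs of neighbours among the 50 brightest genes, the means lay closer than the SD of the brighter one. The order within these 46 pairs thus rests on differences smaller than the spread of the brighter gene between rats.

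Secreted and antigen-presenting proteins stood just as high. Defa24, an alpha-defensin of the kind made by Paneth cells, had 12.23, 12.63 and 12.41. The light chain of class I antigen molecules, B2m, had 12.47, 12.40 and 12.24, but its brightest probe set is of a shared type, and without such probe sets its mean was 10.96. Muc2, the main gel-forming mucin of the gut, had 12.16, 11.94 and 11.71, and Clca4 and Lypd8 averaged 12.12 and 12.11. Among enzymes in the bright group, Cps1 and Oat, mitochondrial enzymes of the intestinal route to citrulline, averaged 12.00 ± 0.18 and 11.94 ± 0.07 (SD, n = 3 each).

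**Figure D1:**
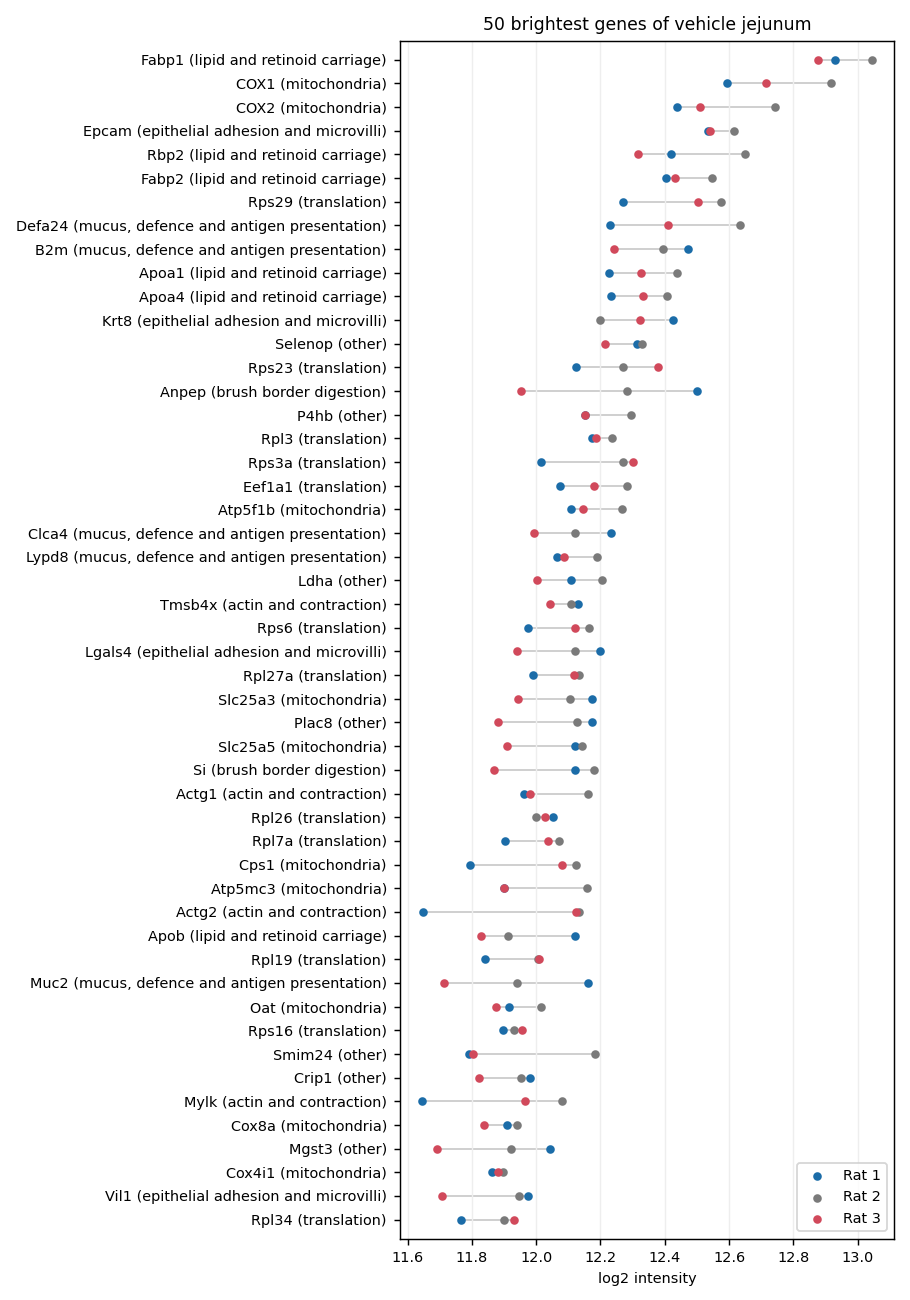
Log2 intensity (horizontal axis) of the 50 brightest genes, 1 row a gene in order of the mean, with 1 point for each vehicle rat, a grey line over their range and the assigned role in brackets. The means run from 12.95 for Fabp1 to 11.87 for Rpl34, and the widest range, 0.55, is that of Anpep.

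The 3 rats shared most of the genes at this bright end, though not their exact ranks. The 50 brightest genes had a median SD of 0.11 over the rats and made up 6.77%, 7.30% and 6.63% of the summed intensity of all ranked genes. Of the 50 brightest genes of each rat alone, 37 were shared by all 3. Rats 1 and 2 shared 43, rats 2 and 3 shared 43, and rats 1 and 3 shared 37. Of the 50 brightest of the vehicle group, 43 were also among the 50 brightest over the 7 treated arrays. The mitochondrially encoded oxidase subunits COX1 and COX2 came next after Fabp1 in the order, with means of 12.74 ± 0.16 and 12.56 ± 0.16 (SD, n = 3 each).

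The promoters of the bright digestive and absorptive genes are shown because they are the sequences next to the most strongly detected gut transcripts. The 250 bases before the start are given 5′ to 3′ on the strand of the gene, from RefSeq on the GRCr8 build, for Fabp1 (chr4:104749090-104749339, plus strand), Rbp2 (chr8:107963292-107963541, plus strand), Fabp2 (chr2:213724379-213724628, plus strand), Apoa4 (chr8:55435529-55435778, plus strand), Anpep (chr1:143195102-143195351, minus strand) and Si (chr2:159884903-159885152, minus strand). Capitals mark the letters TATAAA on the strand of the gene and, on either strand, GGGCGG and CAATAAA. Apoa1 and Apob belong to the same group and are named only.
Fabp1: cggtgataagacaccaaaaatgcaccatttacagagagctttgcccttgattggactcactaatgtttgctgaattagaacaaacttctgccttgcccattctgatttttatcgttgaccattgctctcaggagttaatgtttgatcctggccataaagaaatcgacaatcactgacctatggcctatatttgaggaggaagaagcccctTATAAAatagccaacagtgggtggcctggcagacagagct
Rbp2: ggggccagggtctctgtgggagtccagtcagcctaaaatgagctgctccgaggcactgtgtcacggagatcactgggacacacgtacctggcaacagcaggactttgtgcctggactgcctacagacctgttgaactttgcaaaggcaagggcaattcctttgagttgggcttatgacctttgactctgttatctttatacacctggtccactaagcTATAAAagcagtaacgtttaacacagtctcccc
Fabp2: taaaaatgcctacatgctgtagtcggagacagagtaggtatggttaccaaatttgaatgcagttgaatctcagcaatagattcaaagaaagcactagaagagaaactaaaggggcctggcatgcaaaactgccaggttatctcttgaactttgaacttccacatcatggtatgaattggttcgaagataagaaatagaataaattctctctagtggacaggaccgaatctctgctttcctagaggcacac
Apoa4: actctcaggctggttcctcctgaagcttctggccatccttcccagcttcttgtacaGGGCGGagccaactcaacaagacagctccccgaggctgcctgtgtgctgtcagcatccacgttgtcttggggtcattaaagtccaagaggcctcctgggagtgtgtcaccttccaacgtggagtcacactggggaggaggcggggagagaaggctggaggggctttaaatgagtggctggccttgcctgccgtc
Anpep: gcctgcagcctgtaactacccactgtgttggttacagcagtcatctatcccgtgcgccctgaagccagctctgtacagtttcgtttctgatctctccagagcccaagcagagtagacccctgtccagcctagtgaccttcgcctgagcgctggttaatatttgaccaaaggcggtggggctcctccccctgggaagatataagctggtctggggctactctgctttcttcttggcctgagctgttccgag
Si: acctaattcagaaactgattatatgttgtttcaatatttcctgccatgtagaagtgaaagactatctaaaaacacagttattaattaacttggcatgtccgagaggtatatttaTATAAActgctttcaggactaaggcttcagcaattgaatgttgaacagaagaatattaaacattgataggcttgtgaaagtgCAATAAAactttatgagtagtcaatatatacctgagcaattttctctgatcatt

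TATAAA began 40 bases before the start in Fabp1, 33 before it in Rbp2 and 136 before it in Si, and these letters were not in the window of Fabp2, Apoa4 or Anpep. The window of Si also held CAATAAA and that of Apoa4 held GGGCGG. Over 44 of the 50 brightest genes with an entry, 11.4% of windows held TATAAA, against 5.18% of 10201 ranked genes with an entry and 8.38% of all 27457 windows. For the digestive and absorptive lists the share was 16.2% of 99 windows, and for the immune lists 21.2% of 80. GGGCGG was held by 54.5% of the brightest 50, 47.5% of the digestive and absorptive windows, 28.7% of the immune windows and 56.2% of ranked genes. These are matches of letters, described with no test, and not sites.

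Brush border genes, enzymes and scaffold together, were bright as a group. Of 26 ranked genes in the digestive lists, 25 lay above the middle of all ranked genes and 20 above the 90th percentile. Their median percentile was 97.5. The 26 include 9 genes of the microvillus scaffold, 7 of them above the 90th percentile. Among the 200 brightest genes of the jejunum were 11 of these 26 (42.3%), where 1.62% of all ranked genes lie. The group was brightest in rat 1, with a median percentile of 98.3, against 97.2 in rat 2 and 97.0 in rat 3.

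Anpep and Si were the brightest of the digestive genes, and the peptide-cutting enzymes (median percentile 97.5) and the microvillus scaffold (98.5) were both bright as lists. Anpep, aminopeptidase N, had 12.50, 12.28 and 11.95, ranked 4 in rat 1 and 35 in rat 3. Of 11 ranked peptidases of the brush border all lay above the 89th percentile, from Ggt1, which cuts gamma-glutamyl bonds, at 9.13 on average, to Anpep at 12.24. Mep1a, a meprin subunit, averaged 11.26, Enpep, the aminopeptidase of angiotensin, 11.15, Mme, neprilysin, 11.09, and Dpp4, which removes dipeptides, 10.72. Folh1 was named by a probe set that was blank on all 3 arrays. Within the list the 11 genes were all highest in rat 1, where 38.6% of all ranked genes were, and 10 were lowest in rat 3, where 31.4% of all ranked genes were.

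Sugar hydrolysis rested on fewer named genes. Si, sucrase-isomaltase, had 12.12, 12.18 and 11.87, and Treh, the trehalase, had 8.21, 7.64 and 7.11. Alpi, intestinal alkaline phosphatase, had 11.76, 11.45 and 11.00, while Plb1, a brush border phospholipase, was among the dimmest of the digestive genes with 7.35, 5.87 and 5.18. The scaffold of the microvilli was bright and steadier than the enzymes set in it. Vil1, the actin-bundling villin, averaged 11.88 ± 0.15 (SD, n = 3), and the microvillar link proteins Cdhr5 and Cdhr2 averaged 11.50 and 11.21. The median SD was 0.17 for the 9 scaffold genes and 0.34 for the 11 peptidases. Of the 9 scaffold genes 7 were highest in rat 1 and 2 were lowest there, against 38.6% and 38.3% of all ranked genes. These 2 were Espn, an actin bundler, with 9.22, 10.35 and 10.46, and Baiap2l1, with 7.70, 8.04 and 7.88.

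Fat absorption was the brightest of the nutrient lists. All 19 ranked genes lay above the middle, 18 above the 90th percentile, and the median percentile was 98.9. Besides the carriers above, Mttp, which loads lipid on apolipoprotein B, had 11.76, 11.77 and 11.63, and Acsl5, which activates fatty acids, had 11.91, 11.77 and 11.79. Dgat1, the last step of triglyceride synthesis, averaged 11.54, and Slc27a4, a fatty acid transport protein, averaged 11.39. Cd36, a fatty acid receptor, was the dimmest and had 9.91, 8.77 and 7.97 in rats 1, 2 and 3, a range far wider than that of the carriers.

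Sugar and peptide uptake followed. Slc2a2, the glucose transporter of the basal membrane, had 11.42, 11.23 and 10.96, and Slc2a5, the fructose transporter, had 9.94, 9.73 and 9.58. Slc5a1, the sodium-coupled glucose transporter, had 11.15, 10.45 and 9.12, which put it at rank 187 in rat 1 and rank 1425 in rat 3. Tkfc and Khk, enzymes of fructose breakdown, averaged 10.98 and 9.75. Slc15a1, the peptide transporter, averaged 10.96 ± 0.28 (SD, n = 3), and the amino acid carriers Slc7a7 and Slc3a1 averaged 10.27 and 10.26. Slc1a5 and Slc1a1, carriers of neutral and acidic amino acids, stood lower with means of 4.71 and 6.49. Of the 11 genes of this list, 9 lay above the middle and 6 above the 90th percentile. Pck1, a gluconeogenic enzyme, had 11.41, 10.55 and 10.85.

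Vitamin, ion and sterol handling was more mixed. The 12 ranked vitamin and retinoid genes spanned percentiles from 33.9 for Slc19a1, the reduced folate carrier, to 100.0 for Rbp2, with Bco1, which splits carotene, at 10.81. The intestinal folate carrier Slc46a1 averaged 9.42. Of 17 salt and water genes 15 lay above the middle, led by Atp1b1, the sodium pump's beta subunit (12.00, 11.83 and 11.32), and Guca2b and Guca2a, the peptides uroguanylin and guanylin, at 11.29 and 10.69. Heph, an iron oxidase of the basal membrane, had a mean of 10.53, whereas Slc11a2, the iron uptake transporter, averaged 7.07. Trpv6 and Calb1, a calcium channel and a calcium-binding protein, were dim at 4.41 and 4.03, while S100g, the intestinal calcium-binding protein, had 8.59, 8.94 and 8.67. Abcg5 and Abcg8, which pair to pump sterols back to the lumen, each had their highest value in rat 1 and their lowest in rat 3 (9.26, 8.43 and 7.63 for Abcg5, and 8.59, 7.53 and 6.68 for Abcg8). Over all 103 ranked absorptive genes, 87 lay above the middle, 62 above the 90th percentile and 23 among the 200 brightest. These counts include the list of epithelial adhesion and keratins, with 13 ranked genes, all above the middle and 11 above the 90th percentile.

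**Figure D2:**
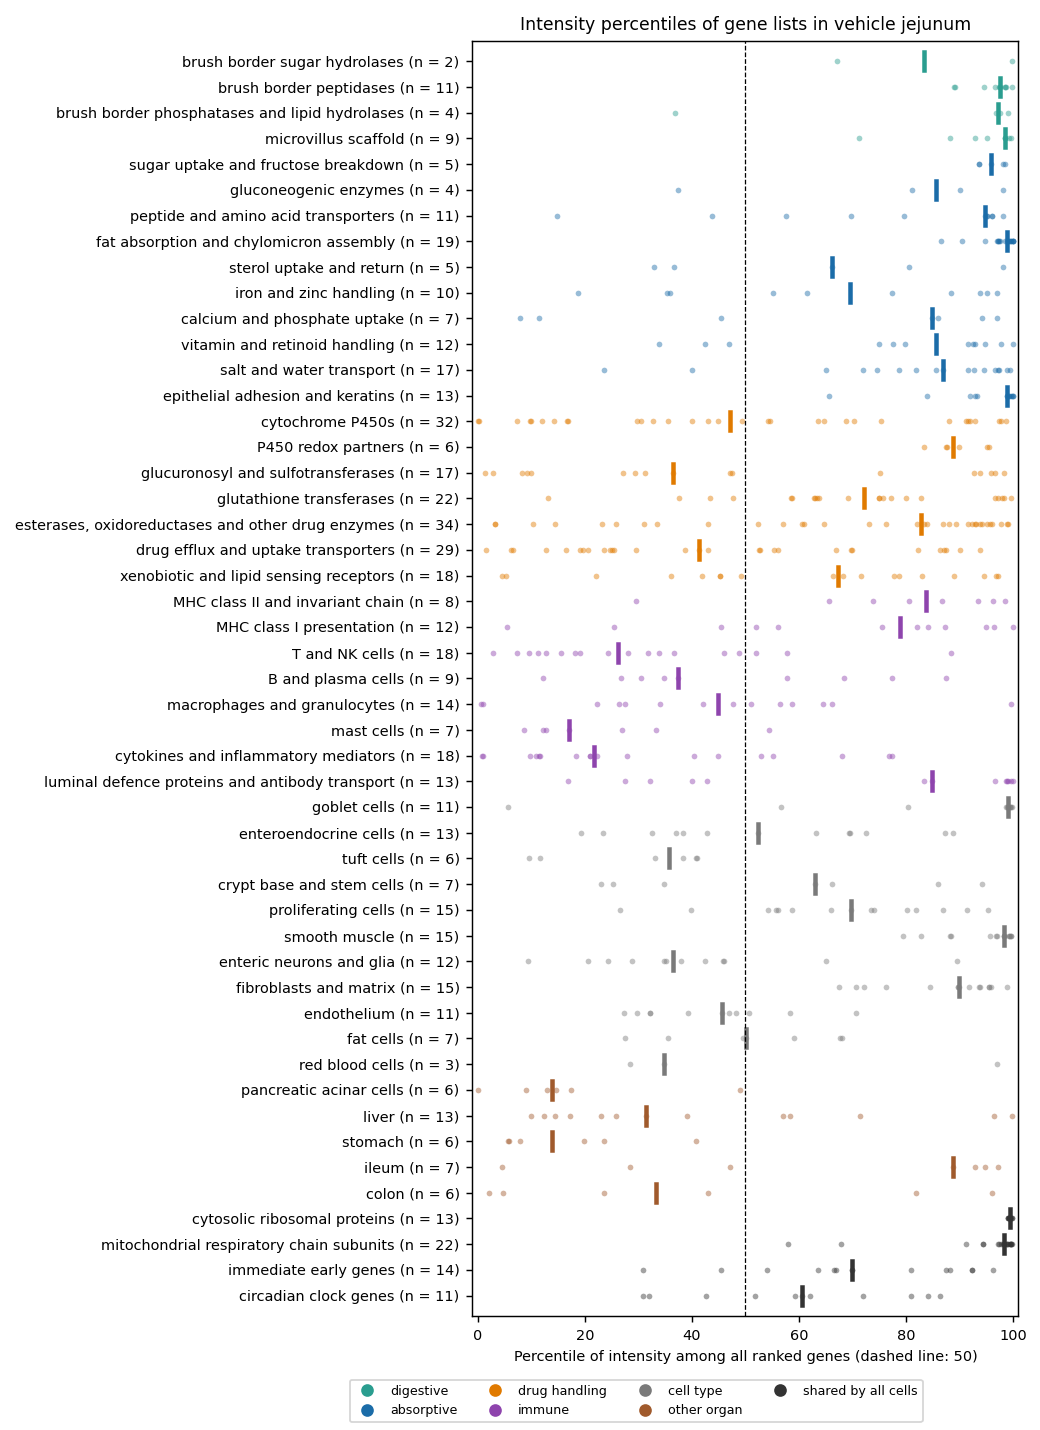
Percentile of log2 intensity among all 12338 ranked genes (horizontal axis) for each gene list (rows), with 1 point a gene and a bar at the median; colours give the kind of list and n the ranked members. Digestive and absorptive lists crowd at the right, with medians of 66.1 to 98.95, the highest that of epithelial adhesion and keratins. Lists of T and NK cells, mast cells and cytokines have medians of 17.1 to 26.2.

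Drug handling genes covered almost the whole scale of intensity. Of 158 ranked genes, 93 lay above the middle and 36 above the 90th percentile, the median percentile was 63.2, and 5 were among the 200 brightest (3.16%). The 34 ranked esterases, oxidoreductases and other drug enzymes had a median percentile of 82.8. Of these, 25 lay above the middle and 12 above the 90th percentile. In the lists of P450s, glutathione transferases, and glucuronosyl and sulfotransferases, 7, 5 and 5 genes lay above the 90th percentile.

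The 32 ranked cytochrome P450 genes, enzymes that oxidise drugs, lipids and vitamins, had a median percentile of 47.1. Cyp3a9, a member of the drug-metabolising 3A family, was the brightest and had 11.34, 11.08 and 11.33. Cyp4f1, a fatty acid hydroxylase family member, had 11.16, 10.93 and 10.39, and Cyp2j4 had 10.91, 10.65 and 10.54. Cyp3a18 had 10.15, 9.31 and 8.85, and Cyp4b1, Cyp51 (sterol synthesis) and Cyp4f5 averaged 9.61, 9.48 and 9.40. Other 3A genes were at the dim end. The probe set of Cyp3a23-3a1 had 4.76, 2.26 and -2.70, and that of Cyp3a2 had 5.57 and 2.18 in rats 1 and 2 and was blank in rat 3. Values this dim scatter widely between arrays, and no order was read from them.

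The AhR pathway is of interest in the series because A-998679 acts on the aryl hydrocarbon receptor, which switches on Cyp1a1. Without the compound, Cyp1a1 had 7.09, 7.66 and 8.71 in rats 1, 2 and 3, a percentile of 70.3, with rat 3 apart from the other rats by 1.05. Its rank was 5464 in rat 1, 4008 in rat 2 and 1995 in rat 3. Cyp1b1 was steadier at 7.74 ± 0.19 (SD, n = 3), and Cyp1a2 was dim and scattered (5.87, 2.63 and 4.34). The receptor Ahr itself was dim, with 2.96, 3.39 and 4.54 on the complete probe set, and 4.73 and 4.79 in rats 1 and 2 on the other, blank in rat 3. Its partner Arnt had a value of 3.44 in rat 1 and was blank in rats 2 and 3. The repressor Ahrr had 6.02, 6.46 and 6.72, in the same order of rats as Cyp1a1, whereas Tiparp, another target of the receptor, had 8.63, 8.08 and 8.08 and was highest in rat 1. A second Tiparp probe set ran the other way (6.25, 7.49 and 7.50). Nqo1, a quinone reductase, had 7.26, 7.19 and 7.58, with rat 3 highest.

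Enzymes that conjugate drugs held several bright members. Mgst3, a microsomal glutathione transferase, averaged 11.89 ± 0.18 (SD, n = 3), and Mgst1 and Gstp1 averaged 11.05 and 10.90, while Gstm3 had 5.71, 5.42 and 2.57. The 22 ranked glutathione genes had a median percentile of 72.1. For the 17 glucuronosyl and sulfotransferase genes it was 36.4, or 47.0 without rat 3. Papss2, which makes the sulfate donor, averaged 11.04, Ugt2b10, a glucuronosyltransferase, 10.42, and the sulfotransferases Sult2b1 and Sult1b1 averaged 10.21 and 9.57. Sult1d1 and Sult1c3 were dim, at 2.49 and 3.02. Among the remaining enzymes Xdh, xanthine dehydrogenase, had 11.45, 11.56 and 11.26, Akr1a1, an aldehyde reductase, averaged 11.30, and Hsd17b2, a steroid dehydrogenase, averaged 10.79. Aldh3a1 and Nat2 each had a value on a single array, 2.54 in rat 3 and 6.17 in rat 1.

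Transporters of drugs covered a wide range on this scale, with a median percentile of 41.4 over 29 ranked genes. Of these, 13 lay above the middle and 2 above the 90th percentile. The efflux pump Abcb1a (P-glycoprotein) was the brightest and had 10.39, 9.61 and 9.36, and its second probe set had the same order of rats. Abcg2 had 9.40, 8.67 and 8.78, and Abcc2 had 8.15, 7.41 and 7.85. These efflux pumps of the apical membrane were each highest in rat 1. In the whole list 21 of the 29 transporters were highest in rat 1, where 38.6% of all ranked genes were. Abcc3, a pump of the basal membrane, had 6.70, 5.45 and 3.94. Among uptake carriers Slc16a1, a monocarboxylate carrier, averaged 9.25, Slc28a2, a nucleoside carrier, 8.98 and Slc22a5, the carnitine carrier, 8.87, and the liver carriers Slco1b2 and Slco1a1 averaged 2.51 and 3.77. Slc28a1, another nucleoside carrier, had 7.96, 7.11 and 5.77.

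Receptors and factors that set enterocyte programmes were split. Hnf4a and Cdx2, transcription factors of the intestinal epithelium, averaged 10.62 ± 0.11 and 10.47 ± 0.24 (SD, n = 3 each), and Nfe2l2, the oxidant-response factor, averaged 9.90 ± 0.09 (SD, n = 3). Nr1i2, the pregnane X receptor, averaged 7.71 ± 0.67 (SD, n = 3), and Nr1i3, the constitutive androstane receptor, had 7.05, 7.11 and 5.55, both lowest in rat 3. Nr1h4, the bile acid receptor, had 5.31, 0.22 and 4.92, so 1 rat set its mean, and Rxra was blank in rat 3. The list of partner proteins of the P450 enzymes was uniformly bright. All 6 of its ranked genes lay above the 83rd percentile, with Cyb5a at 10.11 and Por, the P450 reductase, at 9.24.

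**Figure D3:**
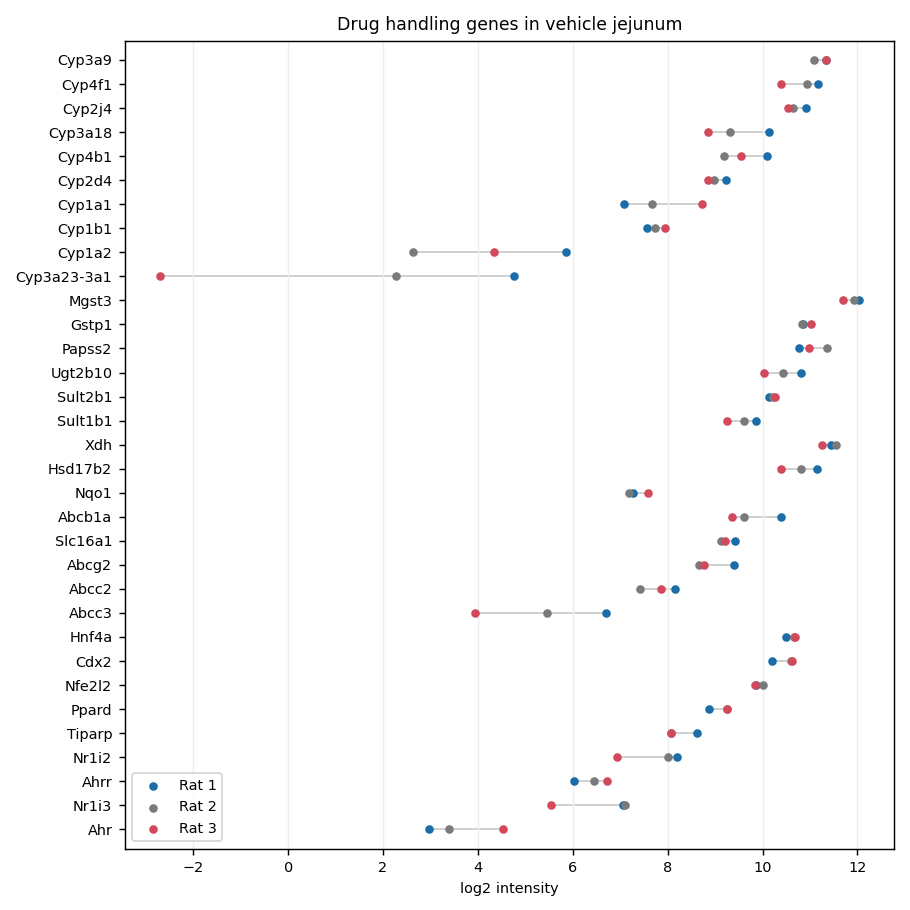
Log2 intensity (horizontal axis) of 33 drug handling genes, with 1 point for each vehicle rat and a grey line over their range. Cyp3a9 and Mgst3 lie above 11 in all 3 rats, Cyp1a1 is spread over 1.62 with rat 3 highest, and Cyp3a23-3a1 reaches down to -2.70.

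The luminal defence and antigen presentation lists had median percentiles of 78.8 to 84.8, and the lymphocyte, mast cell and cytokine lists 17.1 to 37.4, with members of both kinds across a wide range. Tap1 and Ciita, of antigen presentation, lay at the 45.4 and 29.7 percentiles, while 4 of 9 ranked B and plasma cell genes lay above the middle, Jchain the brightest at 87.4. Over 98 ranked immune genes the median percentile was 41.3, with 42 above the middle and 12 above the 90th percentile. All 12 belong to the luminal defence list or to antigen presentation, with Lyz2 also in the macrophage list.

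Luminal defence was led by Defa24 and by Lyz2 (lysozyme), Pla2g2a (a secreted phospholipase), Pigr (which carries antibody across the epithelium) and Reg3b (an antimicrobial lectin). Lyz2 had 11.78, 11.87 and 11.91, Pla2g2a 11.52, 11.27 and 11.37, Pigr 11.03, 11.50 and 11.43, and Reg3b 11.53, 11.09 and 11.07. Dmbt1, a mucosal scavenger protein, averaged 10.41. The 13 ranked genes had a median percentile of 84.8, but 5 others of the list lacked a value on at least 1 array, and with blanks set to a floor the median was 47.6. Reg3a and Defa5 were blank on all 3 arrays. Of the 13 ranked genes 8 lay above the middle and 5 below it, namely Mmp7, Reg1a, Ang, Duox2 and Np4. Np4, a neutrophil defensin, was the dimmest of them with 4.59, 4.82 and 5.19.

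Antigen presentation by class II molecules was seen on all 3 arrays. Cd74, the invariant chain, had 11.30, 10.93 and 11.02, RT1-Da 10.59, 10.17 and 10.22, and RT1-Bb 9.71, 9.82 and 9.63, and 7 of 8 ranked genes of the list lay above the middle. Among class I genes Psmb8, a subunit of the immunoproteasome, had 10.40 in each rat. RT1 genes are near-identical copies, so a probe set may read several of them.

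Lymphocyte genes were lower. The 18 ranked T and NK cell genes had a median percentile of 26.2, with 3 above the middle. Cd3g was the brightest with 9.35, 8.79 and 9.08, whereas Cd3e had 5.62, 5.08 and 5.49. Cd8a had 4.71, 4.39 and -0.05, and Cd4 had a value of 4.72 in rat 2 alone. Gzma, a cytotoxic granule protease, had 7.36, 6.45 and 6.01, and the signal kinase Lck had 7.69, 6.96 and 6.92. In the B and plasma cell list Jchain, which joins secreted antibodies, had 8.90, 8.53 and 9.50, and Ms4a1 (CD20) had 7.29, 5.99 and 4.79. Of the 18 T and NK cell genes 14 were highest in rat 1, where 38.6% of all ranked genes were.

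Myeloid genes other than Lyz2 were of middle or low intensity. The complement genes C1qa, C1qc and C1qb averaged 7.61, 7.23 and 7.13, S100a9, a neutrophil protein, had 1.68, 3.12 and 2.09, and Cd68 had a value in rat 1 alone. Mast cell genes were the dimmest immune list with a median percentile of 17.1 and 5 of 12 named genes lacking a value. Mcpt1, a mast cell protease, was the exception, with 6.24, 6.55 and 8.31, and stood 1.75 above the other rats in rat 3. Cpa3, another mast cell protease, had 5.54, 5.95 and 6.32, and Kit, the stem cell factor receptor, had 5.21, 5.89 and 2.36. Among cytokines Mif, Il33 and Il18 were the brightest, at 8.25, 8.21 and 7.70, and Tnf, Il6 and Ccl2 had means of 2.07, 2.24 and 4.38. Nos2 was blank on all 3 arrays.

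Lists for the other cell types of the gut wall ranged from bright to dim. Enteric neuron and glia genes had a median percentile of 36.6, with 2 of 12 ranked genes above the middle, and 3 more lacked a value. For endothelium the median percentile was 45.7, with 3 of 11 ranked genes above the middle. Goblet cell genes had a median percentile of 99.0, with Tff3 (11.84, 11.55 and 11.60) and Agr2 (11.99, 11.45 and 11.52) beside Muc2. Smooth muscle genes had a median of 98.2, and fibroblast and matrix genes 89.9, with Col3a1, a fibrillar collagen, at 11.32. Enteroendocrine cells were read mainly through Nts (neurotensin), Gip and Chgb, at 9.11, 8.97 and 7.95, and 7 of 13 ranked genes of the list lay above the middle. Tuft cell genes all lay below it. Smoc2 was the brightest crypt base gene with 9.03, 10.08 and 10.44, and Lgr5, the stem cell marker, had 5.74, 5.87 and 6.43. Proliferation genes such as Pcna (10.07 on average) and Top2a (9.42) lay above the middle in 13 of 15 cases.

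Pancreatic and stomach genes were dim, and the ileum list was bright as a whole. The 6 ranked pancreatic genes had a median percentile of 13.8 and the 6 ranked stomach genes 13.8, and none lay above the middle. The 7 ranked ileum genes had a median percentile of 88.8 (71.4 with blanks set to a floor), with 4 above the middle and 3 above the 90th percentile. Among them the bile acid genes Fabp6 (7.89, 6.67 and 5.46) and Slc10a2 (6.18, 5.13 and 5.65) were of middle or low intensity, and Cubn, Amn and Slc51a were bright. The 6 ranked colon genes had a median percentile of 33.3, with 2 above the middle and 1 above the 90th percentile. Car1, another colon gene, was blank on all 3 arrays. Si, Fabp1, Fabp2 and Slc15a1, which mark the absorptive small intestine, were bright, and the ileum list does not set jejunum apart from ileum. Liver genes had a median percentile of 58.9 in rat 1, 20.5 in rat 2 and 21.0 in rat 3. Alb, albumin, had 11.43, 10.00 and 9.72, and Ambp, a secreted liver protein, had 6.85, 3.07 and 2.97.

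Spread between the 3 rats depended on intensity. Over the 24321 complete probe sets the median SD was 0.32 on the log2 scale. It was 1.67 for 337 probe sets with means under 2 and 0.81 for 2966 with means of 2 to 4. It was then 0.39 at 4 to 6, 0.25 at 6 to 8, 0.20 at 8 to 10 and 0.16 for 803 probe sets of 10 or more. A range of 1 or more over the rats was seen in 72.7% of probe sets with means of 2 to 4, against 3.86% of those of 10 or more. Pearson's r between arrays was 0.906 for rats 1 and 2, 0.876 for rats 1 and 3 and 0.918 for rats 2 and 3, over probe sets that share their probes on every array.

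Rats 1 and 3 were the least alike of the vehicle pairs. Over 11330 probe sets above the median intensity with values on all 10 arrays, the median absolute difference was 0.344 for rats 1 and 3, 0.253 for rats 1 and 2 and 0.194 for rats 2 and 3. Of these probe sets 10.5% differed by 1 or more between rats 1 and 3, 4.95% between rats 1 and 2 and 2.76% between rats 2 and 3. Pairs within the treated groups differed by a median of 0.219 at 30 mg/kg, 0.131 to 0.139 at 100 mg/kg (3 pairs) and 0.212 at 200 mg/kg. Both vehicle pairs with rat 1 thus exceeded all 5 treated pairs, a description with no test.

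**Figure D4:**
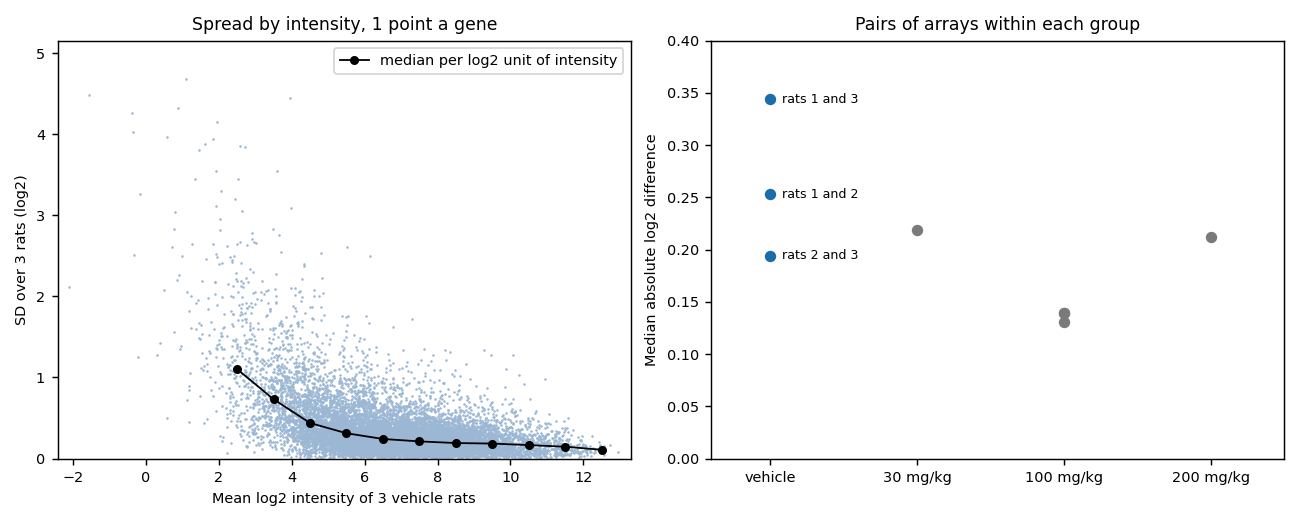
Left, SD of log2 intensity over the 3 vehicle rats (vertical axis) against mean log2 intensity, 1 point a ranked gene, with the median in each log2 unit in black; right, median absolute log2 difference of each pair of arrays, 1 point a pair, for vehicle (blue) and the 3 doses (grey). The SD is largest among dim genes, and the vehicle pair of rats 1 and 3 lies highest at 0.344, against 0.131 to 0.219 for the treated pairs.

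Of 6169 ranked genes above the median intensity, 338 (5.48%) had a range of 1 or more over the rats. Rat 1 stood apart from the other rats in 235 of these 338 genes (69.5%), low in 150 and high in 85, rat 3 in 83 and rat 2 in 20. Over all 6169 genes rat 1 stood apart in 48.8% (1465 high and 1544 low), rat 3 in 33.8% and rat 2 in 17.4%. Rat 2 held the middle value in 81.4% of the 338 genes and in 55.0% of the 6169. Without rat 1 the count of genes with a range of 1 or more was 40, without rat 3 it was 124 and without rat 2 it was 292, on 2 arrays each.

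Genes of one layer or cell type departed together. All 15 smooth muscle genes were lowest in rat 1, where 38.3% of all ranked genes were lowest, and on average they lay 0.52 below the group mean in rat 1 and 0.22 and 0.30 above it in rats 2 and 3. Myh11, smooth muscle myosin, had 11.05, 11.73 and 11.68, and Synpo2, an actin-binding muscle protein, had 8.02, 9.49 and 9.62. Of 12 ranked neuron and glia genes 9 were lowest in rat 1, and Vip, a peptide of enteric neurons, had 8.37, 9.65 and 9.55. Of 15 fibroblast and matrix genes 12 were lowest in rat 1 and 13 were highest in rat 3, where 40.5% of all ranked genes were. Col1a1, a fibrillar collagen, had 9.57, 10.49 and 10.70. Crypt base genes were 0.43 below the mean in rat 1 and 0.38 above it in rat 3.

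Liver genes ran the other way. Of 13 ranked liver genes 12 were highest in rat 1, where 38.6% of all ranked genes were highest. The list lay 1.15 above the group mean in rat 1 and 0.51 and 0.64 below it in rats 2 and 3. Only Cps1, which enterocytes also express, was lowest in rat 1 (11.79, 12.12 and 12.08). Hpx, a plasma haem carrier, had 7.24, 5.08 and 4.17, and Apoc1 had 6.92, 3.65 and 4.09. Peptidases of the brush border lay 0.38 above the mean in rat 1 and 0.34 below it in rat 3. Drug transporters lay 0.32 above it in rat 1 and P450 genes 0.31. Epithelial adhesion genes moved less, 0.13 above the mean in rat 1 and 0.06 and 0.07 below it in rats 2 and 3. The part of the muscle or liver transcripts in the other departures of rat 1 was not tested.

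All 7 ranked fat cell genes were highest in rat 3, where 40.5% of all ranked genes were highest. Their mean departure there was 0.49, and Cidec, a lipid droplet protein, had 7.18, 7.48 and 8.37. The red blood cell list did not go one way, with 2 of its 3 ranked genes highest in rat 3 and 1 highest in rat 1. Hbb, beta-globin, had 9.75, 10.67 and 11.19, and Hba-a3 had 7.03, 7.75 and 8.90, whereas Slc4a1, the anion exchanger of red cells, had 6.23, 5.74 and 4.99. Ribosomal protein and respiratory chain genes moved little in any rat, with mean departures of 0.09 or less in size and median SDs of 0.10 and 0.09. Of 13 ribosomal protein genes 11 were lowest in rat 1 and 9 highest in rat 3, against 38.3% and 40.5% of all ranked genes. For 22 respiratory chain genes these counts were 10 and 5. Rat 2 had fewer extremes, with 21.0% of all ranked genes highest there and 30.3% lowest. Immediate early genes respond to many stimuli within minutes. Of the 14 ranked, 9 were highest in rat 1 and 8 lowest in rat 2, against 38.6% and 30.3% of all ranked genes, and 4 were highest in rat 3. Fos had 10.20, 9.06 and 9.37 and Atf3 had 8.27, 6.94 and 7.72, both highest in rat 1 and lowest in rat 2.

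**Figure D5:**
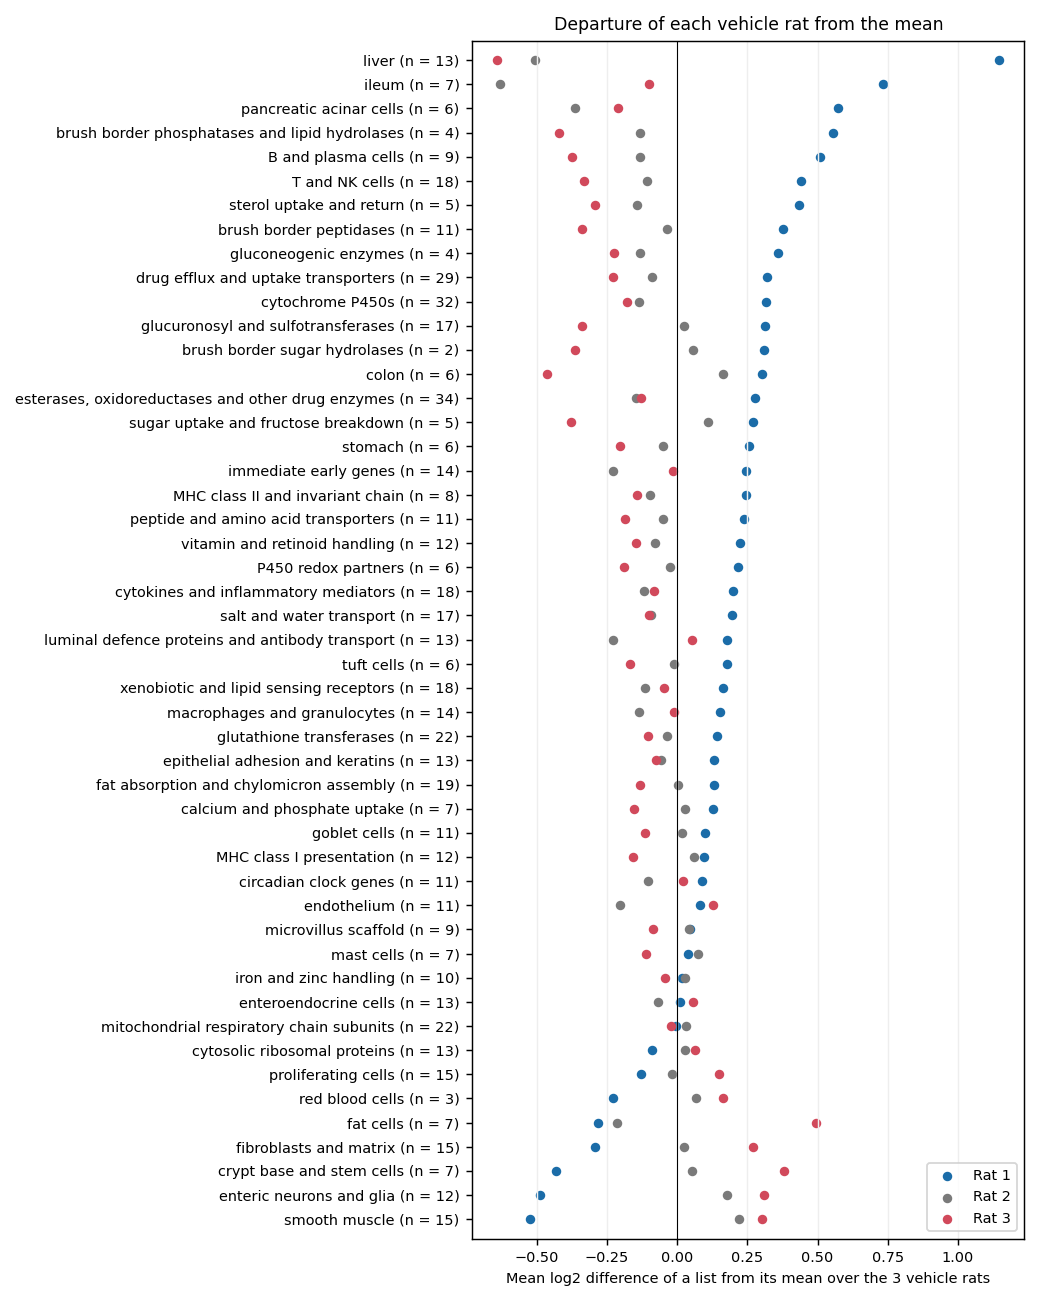
Mean log2 difference of each gene list from its own mean over the 3 vehicle rats (horizontal axis), 1 row a list and 1 point a rat, ordered by rat 1, with n the ranked members. Liver genes lie 1.15 above the mean in rat 1 and smooth muscle genes 0.52 below it, while rat 3 lies 0.49 above it for fat cell genes.

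The widest gene above the median intensity was annotated as Actr2-ps1, with 8.77, 7.70 and 5.40 in rats 1, 2 and 3. Sgpl1, a sphingolipid lyase, had 8.90, 7.73 and 6.21, and Adam10, a membrane protease, had 8.20, 7.40 and 5.58, in the same order of rats. Ccnd2, a cyclin of the cell cycle, had 7.80, 9.61 and 10.41, with rat 1 lowest. Genes low in rat 1 alone included the RNA-binding and splicing genes Khsrp (6.65, 9.01 and 8.93) and Srrm2 (8.58, 10.70 and 10.90), and also Itga1, an integrin, Cpd, Nufip2 and Setd5. Serpina1, a liver protease inhibitor, was high in rat 1 alone (8.53, 6.46 and 6.48), as were Gc, the plasma carrier of vitamin D, Mapk13, a stress kinase, and Coro1a, an actin-binding protein of white blood cells (7.95, 6.45 and 6.46).

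Genes that set rat 3 apart were Fam111a (7.79, 7.37 and 9.83), Mcpt1, Gprc5a (7.76, 7.27 and 9.13) and Cyp1a1 on the high side, and Slc5a1, Slc28a1, Ddx17 and Pde5a on the low side. Rat 2 stood apart by less. Its highest gap was 1.41 for Aqp12a (6.40, 7.81 and 6.30), and Gcnt2, a glycosyltransferase, was 1.06 below the other rats (9.62, 8.57 and 9.63). At the steady end of the 200 brightest genes Cox4i1, an oxidase subunit, had 11.86, 11.90 and 11.88, and Dnpep, an aminopeptidase, had 11.13, 11.12 and 11.09. Tsc22d1, Calm2, Cd24 and 4 ribosomal protein genes (Rpl26, Rps16, Rpl11 and Rpl3) were steady too, each with a range of 0.04 to 0.06.

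Some genes were read very differently by their probe sets. For Maf, a transcription factor, the brightest and the dimmest of 3 complete probe sets averaged 10.48 and 0.58, and for Prrc2c 11.04 and 1.34. Pgk1, a glycolytic enzyme, had 11.26 and 2.77, and Ctnnb1, beta-catenin, had 11.61 and 3.35 among 4 probe sets. The median over the probe sets of a gene was 11.17 for Cps1, against 12.00 by its brightest, and 5.62 for Khsrp, against 8.20. Ahr was ranked by its only complete probe set, since the other was blank in rat 3. Of the 50 brightest probe sets 30 named 1 gene. The brightest with no gene name was 1375340_at with 12.69, 12.92 and 12.74, above every named gene except Fabp1, followed by 1375651_at, 1394174_at, 1388159_at and 1370299_at with means of 12.57, 12.49, 12.44 and 12.23.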

How the data were processed

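Trizol RNA of each rat was biotin-labelled and measured on 1 Affymetrix rat array. The authors scanned the arrays and processed them in Rosetta Resolver, and the deposited table holds log10 intensities, with blanks for some probe sets. How probes were summarised and arrays scaled was not given in the sources used here. A deposited table of the authors' own fold changes was not used. Values were converted to log2 with Python 3.11.15, pandas 2.3.3 and numpy 2.4.6, with no further scaling, since the vehicle medians differed by less than 0.01. Figures used matplotlib 3.10.9.

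Platform annotation names 1 gene for 19952 probe sets, several for 428 and none for 9179. Gene identifiers matched the reference table for 19886 of the first, without changing a symbol. Each gene was read through the brightest of its probe sets with 3 vehicle values. The 49 gene lists, with 784 genes of which 640 were named and 592 ranked, and the rules for naming genes, were chosen with earlier results of these data known, and the names of 3 list genes were corrected after the files were read. Genes named are the 50 brightest, up to 8 of the brightest and 3 of the dimmest of each list with those lacking a value, the AhR and efflux genes named throughout, the 20 widest and 10 steadiest, the 8 highest and lowest of each rat, genes whose probe sets differ most, and the 5 brightest without a name. Hbb and a few further list members were named after their values were seen. All statements are descriptions with no test, and the code was tested on simulated data. The alternatives were centring, quantile normalization, a floor at the 10th percentile (3.17), adding 16 before log2, the median over probe sets or over rats, leaving out shared probe sets, and leaving out each rat.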

Additional observations from a re-analysis of the deposited data

How the results depend on the processing

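No paired analysis was possible because the rats share no pairing and no test was run. The 50 brightest genes kept 43 to 50 members under the alternatives. Median percentiles of the digestive, absorptive, drug handling and immune lists moved by less than the SD between rats, except that the digestive median was 96.7 with the median over the probe sets of a gene. The median SD between rats was 0.23 with 16 added before log2, 0.24 without the 40% of dimmest probe sets, and 0.21 to 0.32 with 1 rat left out. The 338 genes with a wide range became 126 among the brightest 25% of genes, 81 at a range of 1.5, and 40 to 292 with 1 rat left out, where 2 arrays alone set the range. Rat 1 stood apart in 93 of the 126 (73.8%) and 58 of the 81 (71.6%). Of the 49 lists, 16 moved by more than the SD between rats with blanks at a floor, as for luminal defence (84.8, and 47.6 with the floor) and ileum genes (88.8, and 71.4 with the floor), where dim members with blanks enter the list. With the median over probe sets 20 lists and 10 of 84 named genes moved, as did Apob (11.95, and 8.56 as the median) and Selenop (12.29, and 9.21 as the median). Centring and quantile normalization moved none of the 49 lists or 84 genes. Dim genes carry the widest error.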
